A study of Mus musculus with 9 samples.

Results

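The genes described here encode the non-collagen part of the extracellular matrix: 46 genes for matrix glycoproteins, proteoglycans and the oxidases that crosslink matrix fibres. They were taken by gene name from the probe annotation of the arrays, from a list drawn up with earlier results of these data known, and all 46 were measured, among 21995 genes tested. Ctgf and Cyr61 are the array's names for the genes now called Ccn2 and Ccn1. The samples were C2C12 cells, an established mouse myoblast line that can fuse into multinucleated myotubes, after 72 h with vehicle, with 1 nM calcitriol or with 10 nM calcitriol. Calcitriol, given in the labels as 1,25 (OH)2-vitamine D3, is the active hormone made from vitamin D, which acts through the nuclear receptor encoded by Vdr. The series title names murine myotubes, but whether the cells had fused before treatment is not stated in the labels used here. Each group held 3 biological replicates per the series' design text, each on its own 1-colour array, and all came from the same line, so they carry no difference in genotype.

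Small leucine-rich proteoglycans such as decorin and asporin bind collagen fibrils and set their spacing. Elastic fibres are built from elastin on a scaffold of fibrillin microfibrils with the help of fibulins, while laminins, nidogens and perlecan form the basement membrane that sheathes a muscle fibre. Matricellular proteins such as thrombospondins, tenascin C and periostin are secreted into the matrix but act mainly on cell adhesion and signalling, and lysyl oxidases crosslink collagen and elastin. In muscle these genes are known mostly as products of fibroblasts and other connective tissue cells, but cultured myoblasts also make many of them.

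Levels are given as log2 of the processed probe signal minus the 75th percentile of that signal on the same array, so a level of 0 is a signal equal to that percentile. Probes differ in how brightly they bind, so levels of different genes are not compared. A gene is said to have risen or fallen if its adjusted p in limma's moderated test, corrected over all genes tested, was under 0.05. On the array of vehicle replicate 3, 96.4% of spots were well above background and 6007 were marked as non-uniform and left out, against 67.1% to 79.2% and 8 to 56 spots on the other 8 arrays. Its negative control spots had a median signal of 45.8, against 27.8 to 31.6 on the others, so results that rest on it are given with and without it. No spot was saturated. Of the 46 genes, 42 were well above background on all 9 arrays.

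All 11 myoblast and myotube markers were well above background on every vehicle array. So were all 5 macrophage and 8 of 9 fibroblast markers, so detection alone does not settle the identity of the cells. The summed linear level of the muscle markers, in units of the array's 75th percentile, ran from 407 to 451 in vehicle cells. It was 509 to 567 at 1 nM and 531 to 559 at 10 nM. Of these markers 5 rose and 0 fell at 1 nM, and 6 rose and 1 fell at 10 nM. Markers of fibroblasts, several of which are matrix genes themselves, moved with the genes described here. Of 8 measured, 1 rose and 7 fell at 1 nM, 1 rose and 6 fell at 10 nM, and the sum over the 9 on the array was 299 to 320, 170 to 190 and 185 to 199 in vehicle, 1 nM and 10 nM cells. The fibroblast marker Dpt was above background on no array at either dose. Of 6 smooth muscle and pericyte markers, 5 fell at each dose, and the sum over the 7 on the array was 203 to 216, 132 to 142 and 104 to 108. All 7 cell cycle markers, such as Mki67 and Top2a, fell at both doses, with a summed level of 31.6 to 35.5 in vehicle cells, 1.70 to 1.96 at 1 nM and 1.08 to 1.12 at 10 nM. Of 7 adipocyte markers, 1 rose at 1 nM and 2 at 10 nM, and their sum was 0.56 to 1.43 in vehicle cells, 1.79 to 1.91 at 1 nM and 4.38 to 4.81 at 10 nM. The adipocyte marker Fabp4 was called higher at both doses and Adipoq at 10 nM, but each was well above background on 1 vehicle array only. Vehicle levels were -8.27, -8.43 and -3.82 for Fabp4 and -8.93, -8.13 and -2.80 for Adipoq. Without vehicle replicate 3, Fabp4 had log2 changes of 8.45 at 1 nM and 9.10 at 10 nM, against 6.94 and 7.59 with it. Adipoq had 9.58 at 10 nM, against 7.67. As most vehicle signals of both genes lay near background, the sizes of these rises are not settled. Of 5 osteoblast markers measured, Runx2 and Dmp1 fell at both doses, and the sum over the 6 on the array was 0.58 to 0.83 in vehicle cells, 0.44 to 0.47 at 1 nM and 0.28 to 0.34 at 10 nM. The part of these shifts in the matrix results was not tested. In such bulk RNA, fewer cells of a type and less RNA per cell cannot be told apart.

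The first question is how each dose moved the matrix genes relative to vehicle. At 1 nM, 7 of the 46 genes rose and 28 fell, so 76.1% were called, against 23.6% of all genes tested. At 10 nM, 5 rose and 27 fell, so 69.6% were called, against 30.1% of all genes. Falls made up most of it: of all genes tested 11.8% fell and 11.8% rose at 1 nM, and 14.7% fell and 15.4% rose at 10 nM. The median log2 change of the 46 genes was -0.61 at 1 nM and -0.73 at 10 nM, beside medians over all genes of -0.09 and -0.11. Changes of at least 2-fold among the called genes numbered 16 lower and 4 higher at 1 nM, and 21 lower and 4 higher at 10 nM. As the 46 genes were listed with earlier results known, these shares describe them and are no independent test. Both comparisons share the vehicle arrays, so they are not independent of each other.

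**Figure D1:**
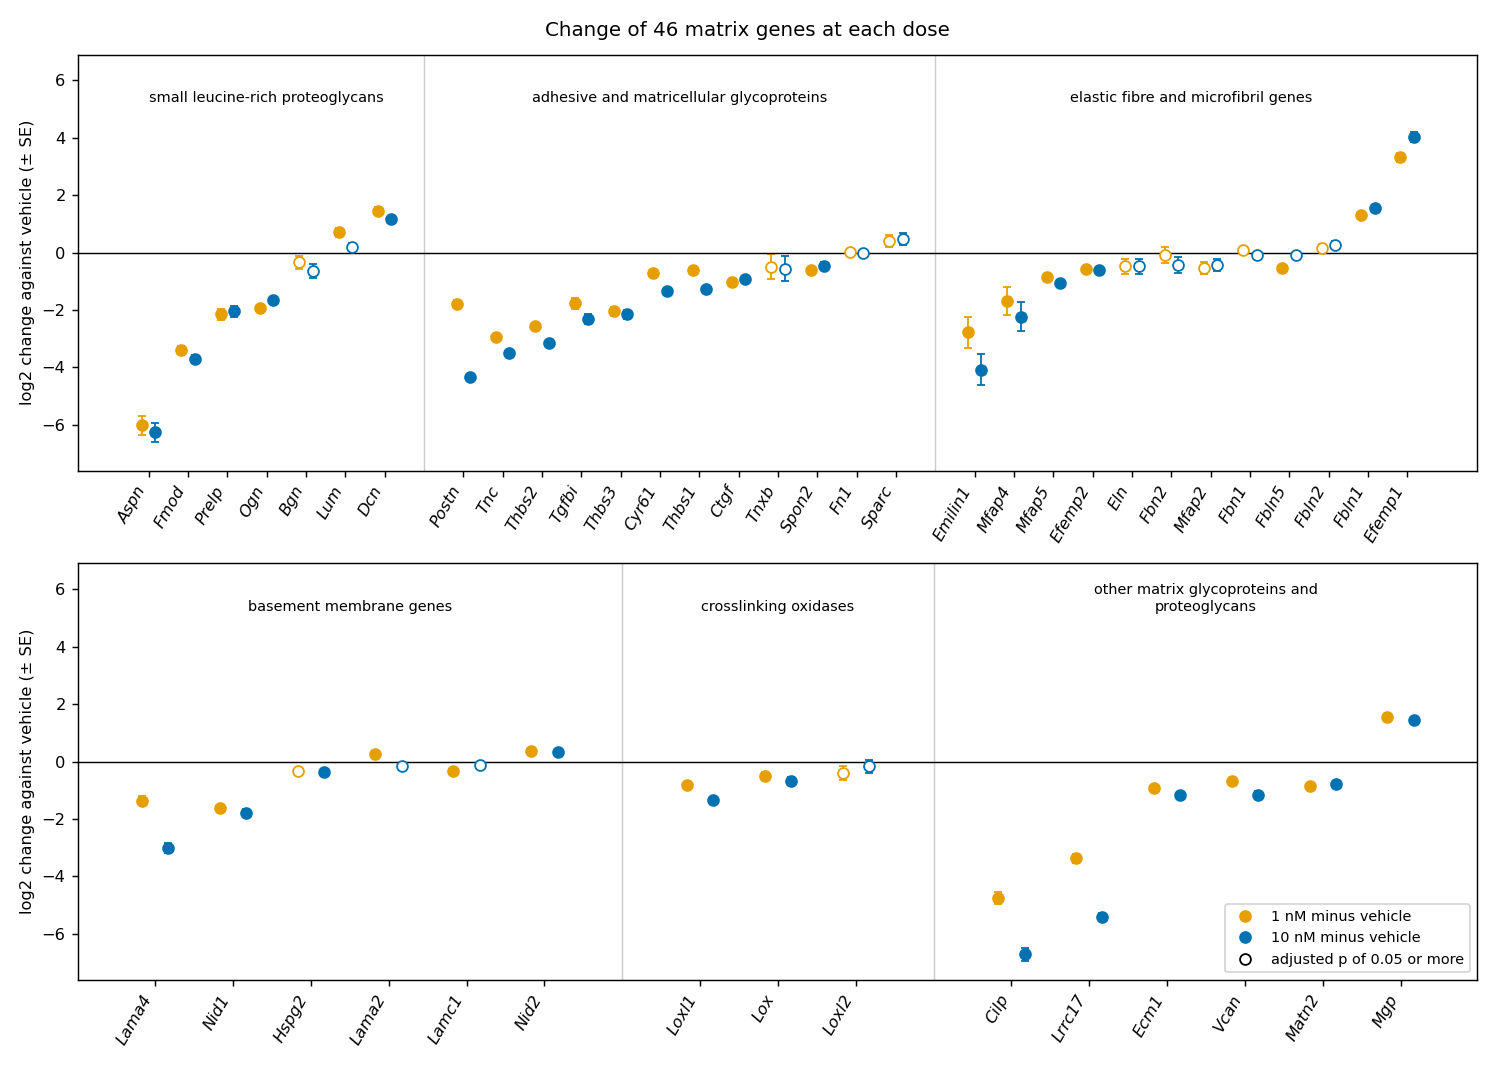
Log2 change against vehicle (y axis, mean difference ± SE, 3 arrays per group except where a spot was left out) of the 46 matrix genes, grouped by role along the x axis, at 1 nM (orange) and 10 nM (blue); open points did not pass the test. Cilp and Lrrc17 reach -6.72 and -5.42 at 10 nM, and Efemp1 lies highest, at 4.02. The points of Aspn at both doses and of Emilin1 at 10 nM rest on treated signals not well above background, so the length of those falls is not settled by the points.

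The counts depend on how the arrays are scaled. With each array's median in place of its 75th percentile, 14 genes fell and 5 rose at 1 nM, and 14 fell and 4 rose at 10 nM. Over all genes, 573 then fell and 940 rose at 1 nM, against 2599 and 2589 with the 75th percentile. At 10 nM 833 fell and 1697 rose, against 3229 and 3393. The median signal of vehicle replicate 3 was 660, against 216 to 315 on the other arrays. That scaling moved the median of all genes to 0.38 at 1 nM and 0.40 at 10 nM. The median of the 46 genes moved to -0.12 and -0.20. A change of scale shifts all genes on an array alike, so the distance between both medians could hardly change and is no support. Under median scaling higher genes made up 62.1% of all calls at 1 nM and 67.1% at 10 nM, against 49.9% and 51.2% with the 75th percentile. When vehicle replicate 3 was left out as well, 24 genes fell and 5 rose at 1 nM, and 25 fell and 6 rose at 10 nM. Over all genes, 1567 then fell and 2068 rose at 1 nM, and 2109 fell and 3339 rose at 10 nM. The shares of higher calls were 56.9% and 61.3%. Called changes that turned direction under median scaling with every array kept were small: Lamc1 at 1 nM (0.15) and Hspg2 and Spon2 at 10 nM (0.15 and 0.072). Without vehicle replicate 3 these changes kept their direction under that scaling but did not pass. No other called change of the 46 genes turned under the alternatives tried.

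The arrays lay on 3 slides, scanned at different times. Slide 1 held vehicle replicates 1 and 2 and replicate 1 of each dose, slide 2 held vehicle replicate 3, 1 nM replicates 2 and 3 and 10 nM replicate 2, and slide 3 held 10 nM replicate 3 alone. With slide as a block, 28 genes fell and 6 rose at 1 nM, and 26 fell and 4 rose at 10 nM. Within slide 1 the counts were 19 and 4 at 1 nM and 24 and 4 at 10 nM, and within slide 2 they were 31 and 6 at 1 nM and 28 and 4 at 10 nM. A single slide leaves 1 array for some groups, whose spread is then assumed to equal that of the group with 2. Over all genes within slide 2, where the lone vehicle array is replicate 3, higher genes made up 26.6% of the calls at 1 nM and 27.9% at 10 nM. Within slide 1 they made up 39.0% and 46.6%.

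Probe positions follow mm9, which the file headers name as their build. The Aspn probe matches chr13:49662479-49662538 and the Ogn probe chr13:49719549-49719608, both on the plus strand, the Cilp probe chr9:65128007-65128066 on the plus strand, and the Postn probe chr3:54194840-54194899 on the plus strand. The Fmod probe lies at chr1:135943998-135944057 on the plus strand, the Efemp1 probe at chr11:28826647-28826706 on the plus strand, and the Dcn probe at chr10:96980233-96980292 on the plus strand. Which exon a probe reads was not analysed here.

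Promoter sequence was matched by symbol from RefSeq (GRCm38.p6) for 28 of the 46 genes, in 35 windows of the 250 bases before a transcription start. The windows printed here belong to Aspn, Cilp and Postn, which fell strongly, to Ogn, which lies near Aspn on the chromosome, to Efemp1, which rose most, and to Cyr61, a textbook target of YAP and TEAD. Capitals mark any match, on either strand, to AGGTCA or GGTTCA, half-sites of vitamin D response elements, to GGAATG, a TEAD site, to CAGAC, a SMAD site, or to TATAAA, the TATA box. Each sequence runs 5′ to 3′ on the gene's strand.
Aspn, chr13:49544193-49544442, plus strand: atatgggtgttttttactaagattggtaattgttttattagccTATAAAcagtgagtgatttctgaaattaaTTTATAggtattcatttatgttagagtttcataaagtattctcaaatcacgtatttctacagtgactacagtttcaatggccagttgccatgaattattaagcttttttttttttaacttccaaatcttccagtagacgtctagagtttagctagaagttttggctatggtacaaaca
Ogn, chr13:49607765-49608014, plus strand: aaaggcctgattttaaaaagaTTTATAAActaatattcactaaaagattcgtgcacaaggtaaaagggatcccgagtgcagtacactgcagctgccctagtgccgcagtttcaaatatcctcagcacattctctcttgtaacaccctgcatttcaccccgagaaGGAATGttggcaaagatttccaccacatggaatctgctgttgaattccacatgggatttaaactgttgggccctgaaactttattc
Cilp, chr9:65264930-65265179, plus strand: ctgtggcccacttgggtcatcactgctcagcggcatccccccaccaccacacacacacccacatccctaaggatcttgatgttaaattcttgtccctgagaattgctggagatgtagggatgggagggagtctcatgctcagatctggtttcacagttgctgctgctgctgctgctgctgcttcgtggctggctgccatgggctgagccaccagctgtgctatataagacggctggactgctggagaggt
Postn, chr3:54359017-54359266, plus strand: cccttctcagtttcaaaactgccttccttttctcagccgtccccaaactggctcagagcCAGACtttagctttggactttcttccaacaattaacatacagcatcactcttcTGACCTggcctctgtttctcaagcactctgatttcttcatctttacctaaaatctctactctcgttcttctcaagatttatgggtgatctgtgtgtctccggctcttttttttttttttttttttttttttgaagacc
Postn (downstream start), chr3:54360857-54361106, plus strand: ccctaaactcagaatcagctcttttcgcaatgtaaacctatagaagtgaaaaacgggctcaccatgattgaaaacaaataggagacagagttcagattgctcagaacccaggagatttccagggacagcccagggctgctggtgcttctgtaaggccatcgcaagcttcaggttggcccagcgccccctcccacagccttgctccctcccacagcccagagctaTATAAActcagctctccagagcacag
Cyr61, chr3:145649986-145650235, minus strand: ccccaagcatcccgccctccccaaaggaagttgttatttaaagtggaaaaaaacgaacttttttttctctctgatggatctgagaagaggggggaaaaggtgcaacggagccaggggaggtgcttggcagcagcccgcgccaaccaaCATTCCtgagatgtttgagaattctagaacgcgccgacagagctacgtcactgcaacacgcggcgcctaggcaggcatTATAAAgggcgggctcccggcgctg
Efemp1, chr11:28852955-28853204, plus strand: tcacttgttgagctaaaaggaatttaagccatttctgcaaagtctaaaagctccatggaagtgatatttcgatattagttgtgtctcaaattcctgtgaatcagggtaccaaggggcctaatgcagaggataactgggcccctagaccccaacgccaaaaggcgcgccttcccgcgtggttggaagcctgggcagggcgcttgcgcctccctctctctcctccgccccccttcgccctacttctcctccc

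Among these windows the Cilp and Efemp1 promoters held none of the 5 motifs. The Cyr61 window held a TATAAA starting 25 bases before the start and a GGAATG on the other strand at 103 bases. The downstream Postn start had a TATAAA 26 bases before it, while the window of its upstream start held an AGGTCA on the other strand and a CAGAC. Over all 35 windows, AGGTCA was present in 14.3%, against 14% of 32851 promoters of the same length, GGTTCA in 2.86% against 8.85%, GGAATG in 11.4% against 12.6% and CAGAC in 45.7% against 42.2%. TATAAA was present in 25.7% of the windows, against 12.4% of all. Windows of some genes, such as Tnc, overlap, so a match can count more than once. By gene, TATAAA was present for 8 of the 28. These matches describe letters in these windows only.

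The 7 small leucine-rich proteoglycans split by gene. At 1 nM, 4 fell and 2 rose, and at 10 nM 4 fell and 1 rose, with a median log2 change of -1.93 at 1 nM and -1.65 at 10 nM. Asporin, which binds collagen and is known to restrain TGF-beta, showed the largest fall of the group. Aspn had log2 levels of -2.02, -1.82 and -2.10 in vehicle cells, -7.77, -7.57 and -8.67 at 1 nM and -8.69, -7.78 and -8.25 at 10 nM. Its probe was well above background on all 3 vehicle arrays and on no array at either dose, so the treated levels are bounds, and the groups did not overlap with vehicle. The fall was at least 28.3-fold at 1 nM (adjusted p = 1.07e-05) and at least 27.5-fold at 10 nM (adjusted p = 5.44e-06). Such a bound compares the vehicle mean with a floor on each treated array, taken as the probe's own signal or, if higher, as the dimmest signal still scored above background.

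Fibromodulin, a collagen-binding proteoglycan, and its relative PRELP also fell at both doses. Fmod had log2 levels of -1.07, -0.67 and -0.93 in vehicle cells, -4.53, -4.17 and -4.15 at 1 nM and -4.66, -4.51 and -4.64 at 10 nM. Every treated array lay below every vehicle array, and the fall was 3.39 (SE 0.14, adjusted p = 2.55e-06) at 1 nM and 3.72 (SE 0.14, adjusted p = 1.10e-06) at 10 nM on the log2 scale, or 10.5-fold and 13.1-fold. Prelp had log2 levels of -3.00, -3.28 and -2.68 in vehicle cells, -4.96, -5.30 and -5.16 at 1 nM and -4.83, -4.97 and -5.30 at 10 nM. It fell by 2.15 (SE 0.18, adjusted p = 1.24e-04) on the log2 scale at 1 nM and by 2.05 (SE 0.18, adjusted p = 1.13e-04) at 10 nM. Osteoglycin, also called mimecan, is a smaller member of the family. Ogn had log2 levels of 5.56, 5.48 and 5.40 in vehicle cells, 3.45, 3.62 and 3.60 at 1 nM and 3.67, 3.93 and 3.90 at 10 nM, with no overlap between vehicle and either dose. It fell by 1.93 (SE 0.09, adjusted p = 6.33e-06) at 1 nM and 1.65 (SE 0.09, adjusted p = 9.20e-06) at 10 nM, and its 10 nM level was 0.27 above its 1 nM level, a difference that did not pass the test (adjusted p = 0.245).

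Decorin and lumican moved the other way. Decorin binds collagen and growth factors, among them TGF-beta and myostatin. Dcn had log2 levels of 3.78, 3.59 and 3.80 in vehicle cells, 5.07, 5.25 and 5.20 at 1 nM and 4.72, 5.13 and 4.80 at 10 nM, and all 6 treated arrays lay above the vehicle arrays. Its rise on the log2 scale was 1.45 (SE 0.12, adjusted p = 1.13e-04) at 1 nM and 1.16 (SE 0.12, adjusted p = 2.69e-04) at 10 nM, or 2.74-fold and 2.24-fold. Lum had log2 levels of -4.25, -4.13 and -3.71 in vehicle cells, -3.42, -3.30 and -3.26 at 1 nM and -3.81, -3.77 and -3.96 at 10 nM. Its 1 nM arrays lay above all vehicle arrays, with a rise of 0.70 (SE 0.14, adjusted p = 0.00933), while at 10 nM the arrays overlapped vehicle and the change was 0.18 (SE 0.14, adjusted p = 0.352). Between the doses its difference of -0.52 did not pass the test (adjusted p = 0.117), but did without vehicle replicate 3 (adjusted p = 0.0138). Without that array Lum also passed at 10 nM, at 0.34 (adjusted p = 0.0278). Biglycan, the nearest relative of decorin, changed by -0.34 (SE 0.24, adjusted p = 0.35) at 1 nM and -0.65 (SE 0.24, adjusted p = 0.0802) at 10 nM and was not called. Its vehicle arrays spread from 2.18 to 3.14, and without vehicle replicate 3 its 10 nM change was -0.87 (adjusted p = 0.0152).

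**Figure D2:**
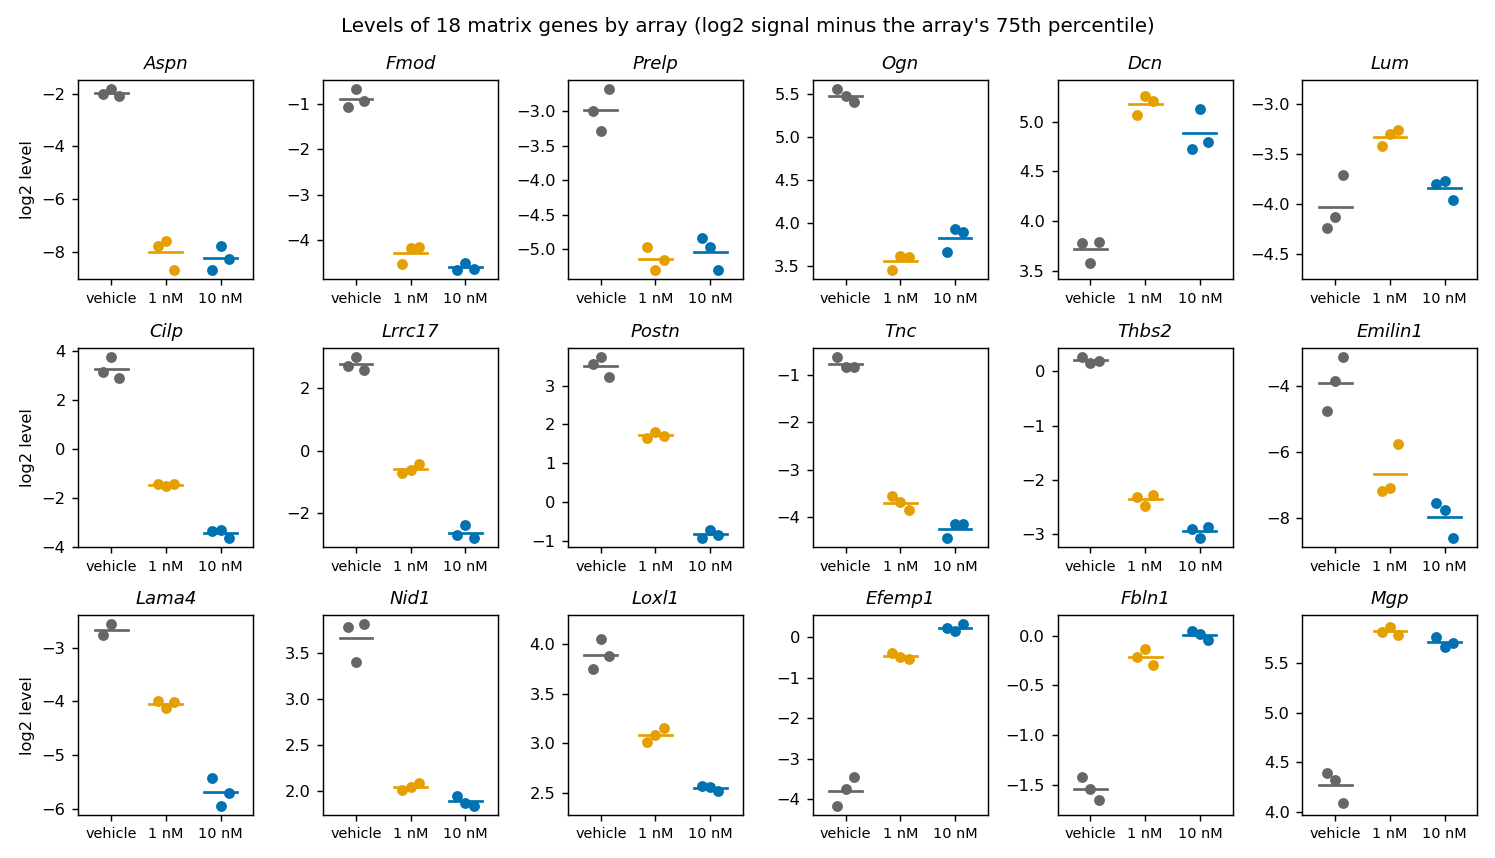
Log2 level (y axis, relative to the array's 75th percentile, own scale for each gene) of 18 matrix genes on each array of vehicle, 1 nM and 10 nM cells; points are arrays and lines are group means. Fmod, Prelp and Ogn lie below vehicle at both doses, as does Aspn, whose treated points are not above background, Cilp, Lrrc17, Postn and Lama4 step down again at 10 nM, and Dcn, Efemp1, Fbln1 and Mgp sit above vehicle at both doses.

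Several of these proteoglycan genes are neighbours on a chromosome, in the gene order of the RefSeq table. On chromosome 13, Ecm2, Aspn, Omd and Ogn follow each other, and each was lower at both doses. Omd, which encodes osteomodulin and is not 1 of the 46 genes, fell by 3.34 on the log2 scale at 1 nM (adjusted p = 3.03e-05) and by 3.82 at 10 nM (adjusted p = 9.56e-06). Ecm2 fell by 0.89 at 1 nM (adjusted p = 0.00557) and 1.12 at 10 nM (adjusted p = 0.00132). The next gene on the far side of Ogn, Nol8, changed by 0.22 and 0.06 and was not called, while Cenpp, next to Ecm2, fell by 2.97 at 1 nM and 3.15 at 10 nM. Cenpp encodes a centromere protein. On chromosome 1, Prelp and Fmod are adjacent and Optc, on the other side of Prelp, fell by 1.20 at 1 nM (adjusted p = 4.11e-04) and 1.52 at 10 nM (adjusted p = 7.98e-05). Dcn and Lum, adjacent on chromosome 10, were higher at 1 nM. The genes of these runs were looked up after the values were known.

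**Figure D3:**
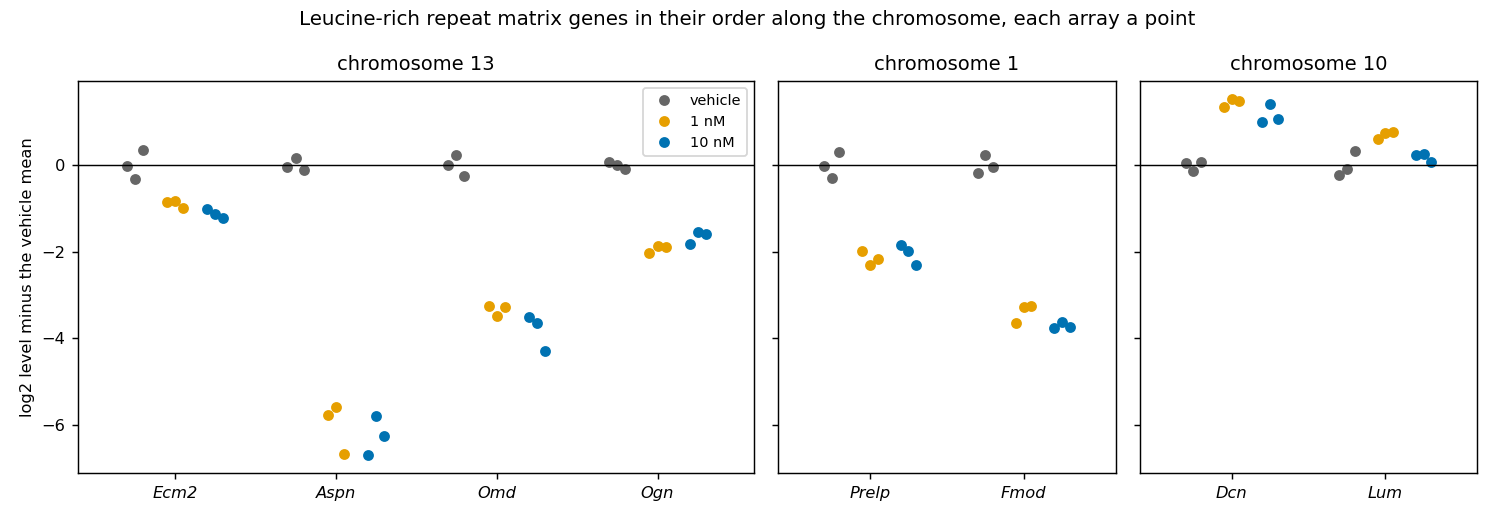
Log2 level minus the gene's vehicle mean (y axis) on each array, for leucine-rich repeat matrix genes in their order along chromosomes 13, 1 and 10 (x axis), in vehicle (grey), 1 nM (orange) and 10 nM (blue) cells. The 4 genes on chromosome 13 and both on chromosome 1 lie below vehicle on all treated arrays, and Dcn lies above it on all.

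The 12 adhesive and matricellular glycoproteins showed no rise. At each dose 9 fell, with a median log2 change of -0.87 at 1 nM and -1.30 at 10 nM. Periostin, which binds collagen and integrins, had the largest fall of them at 10 nM. Postn had log2 levels of 3.56, 3.75 and 3.22 in vehicle cells, 1.66, 1.80 and 1.71 at 1 nM and -0.93, -0.73 and -0.85 at 10 nM. The 3 groups did not overlap, with 10 nM lowest. Its log2 change was -1.79 (SE 0.14, adjusted p = 6.58e-05) at 1 nM and -4.35 (SE 0.14, adjusted p = 4.51e-07) at 10 nM, that is 3.45-fold and 20.4-fold lower. Tgfbi, which encodes a related adhesion protein, had log2 levels of -2.31, -2.12 and -2.10 in vehicle cells, -4.12, -3.85 and -3.86 at 1 nM and -4.12, -4.47 and -4.88 at 10 nM. It fell by 1.77 (SE 0.19, adjusted p = 3.80e-04) at 1 nM and 2.31 (SE 0.19, adjusted p = 6.26e-05) at 10 nM.

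Tenascin C, a glycoprotein of remodelling matrix, and the thrombospondins followed. Tnc had log2 levels of -0.60, -0.83 and -0.82 in vehicle cells, -3.57, -3.68 and -3.85 at 1 nM and -4.45, -4.16 and -4.16 at 10 nM, a fall of 2.95 (SE 0.12, adjusted p = 2.28e-06) at 1 nM and 3.51 (SE 0.12, adjusted p = 6.22e-07) at 10 nM. Its groups did not overlap. Thbs2 had log2 levels of 0.28, 0.16 and 0.19 in vehicle cells, -2.32, -2.49 and -2.28 at 1 nM and -2.90, -3.08 and -2.88 at 10 nM. Its groups lay apart from each other, and it fell 5.94-fold at 1 nM (adjusted p = 9.60e-07) and 8.95-fold at 10 nM (adjusted p = 2.28e-07). Thbs3 had log2 levels of -0.47, -0.44 and 0.06 in vehicle cells, -2.39, -2.35 and -2.23 at 1 nM and -2.56, -2.34 and -2.40 at 10 nM. It fell by 2.04 (SE 0.15, adjusted p = 5.18e-05) at 1 nM and by 2.15 (SE 0.15, adjusted p = 2.65e-05) at 10 nM, and the array of vehicle replicate 3 was the highest of its group. Thbs1, known as an activator of latent TGF-beta, had log2 levels of 5.43, 5.33 and 5.12 in vehicle cells, 4.68, 4.74 and 4.67 at 1 nM and 3.94, 4.10 and 4.09 at 10 nM. It fell by 0.60 (SE 0.09, adjusted p = 0.00272) at 1 nM and by 1.25 (SE 0.09, adjusted p = 3.72e-05) at 10 nM.

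Ctgf and Cyr61 encode CCN matricellular proteins that are known readouts of YAP and TEAD activity. Ctgf averaged 3.38 ± 0.11 in vehicle cells, 2.35 ± 0.05 at 1 nM and 2.45 ± 0.09 at 10 nM (log2 level, SD, n = 3 each), a fall of 1.02 (SE 0.08, adjusted p = 7.86e-05) at 1 nM and 0.93 (SE 0.08, adjusted p = 9.16e-05) at 10 nM. Cyr61 averaged 2.09 ± 0.10, 1.39 ± 0.08 and 0.74 ± 0.05 in the same order, and fell by 0.71 (SE 0.08, adjusted p = 4.87e-04) at 1 nM and 1.35 (SE 0.08, adjusted p = 1.01e-05) at 10 nM. The arrays of each gene's vehicle group lay above all treated arrays. Spon2, a secreted F-spondin relative, fell by 0.62 (SE 0.11, adjusted p = 0.00637) at 1 nM and 0.46 (SE 0.11, adjusted p = 0.0201) at 10 nM. The Spon2 call at 10 nM was lost with slide as a block (adjusted p = 0.0867) and without any 1 of the 10 nM arrays, with adjusted p from 0.0504 to 0.0658.

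Fibronectin, the main adhesive glycoprotein of cultured cells, averaged 7.10 ± 0.17 in vehicle cells, 7.12 ± 0.12 at 1 nM and 7.09 ± 0.10 at 10 nM. Its changes of 0.03 (SE 0.11, adjusted p = 0.885) and -0.01 (SE 0.11, adjusted p = 0.973) did not pass the test. Sparc, which encodes osteonectin, was read by probes that disagreed: the brighter changed by 0.41 at 1 nM and 0.47 at 10 nM, and the other by -0.54 and -0.52, and none passed. Tnxb, which encodes tenascin X, changed by -0.49 (SE 0.43, adjusted p = 0.458) at 1 nM and -0.56 (SE 0.43, adjusted p = 0.352) at 10 nM. Its vehicle arrays ranged from -4.58 to -2.95, wider than either difference. Without vehicle replicate 2, the lowest of them, Tnxb passed as a fall at both doses, with log2 changes of -1.03 (adjusted p = 0.0153) and -1.10 (adjusted p = 0.00918). Without vehicle replicate 3 the Tnxb changes were -0.21 (adjusted p = 0.771) and -0.29 (adjusted p = 0.646). In the submitters' deposited table they were 0.14 and 0.07 and did not pass, so the direction is not settled.

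Of 12 elastic fibre and microfibril genes, 2 rose and 5 fell at 1 nM, and 2 rose and 4 fell at 10 nM. The median change was -0.51 at 1 nM and -0.43 at 10 nM. The fibulin-type gene Efemp1, which encodes fibulin 3, had the largest rise of all 46 genes. Efemp1 had log2 levels of -4.16, -3.74 and -3.45 in vehicle cells, -0.39, -0.47 and -0.54 at 1 nM and 0.23, 0.16 and 0.32 at 10 nM, and every treated array lay far above every vehicle array. On the log2 scale it rose by 3.32 (SE 0.17, adjusted p = 7.14e-06) at 1 nM and by 4.02 (SE 0.17, adjusted p = 1.69e-06) at 10 nM, which is 9.99-fold and 16.2-fold. Fibulin 1, which binds fibronectin and basement membrane, rose as well. Fbln1 had log2 levels of -1.42, -1.54 and -1.64 in vehicle cells, -0.21, -0.13 and -0.29 at 1 nM and 0.05, 0.02 and -0.05 at 10 nM. Its rise was 1.32 (SE 0.08, adjusted p = 2.02e-05) at 1 nM and 1.54 (SE 0.08, adjusted p = 5.67e-06) at 10 nM by its brightest probe, and 2 further probes gave 1.24 and 0.62 at 1 nM and 1.47 and 0.68 at 10 nM.

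Other fibulins went differently. Fibulin 5 and Efemp2, which encodes fibulin 4, are needed to assemble elastin. Fbln5 had log2 levels of 2.78, 2.62 and 2.83 in vehicle cells, 2.16, 2.30 and 2.18 at 1 nM and 2.78, 2.62 and 2.60 at 10 nM. It fell by 0.53 (SE 0.09, adjusted p = 0.00384) at 1 nM, while its 10 nM arrays overlapped vehicle, with a change of -0.08 (SE 0.09, adjusted p = 0.518). A second probe of Fbln5 gave -0.78 at 1 nM and 0.14 at 10 nM. Efemp2 fell by 0.58 (SE 0.07, adjusted p = 9.91e-04) at 1 nM and 0.61 (SE 0.07, adjusted p = 5.13e-04) at 10 nM, and Fbln2 changed by 0.15 (SE 0.14, adjusted p = 0.492) and 0.26 (SE 0.14, adjusted p = 0.201) and was not called.

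Among microfibril-associated genes the falls were larger. Emilin1, a glycoprotein at the elastin and microfibril interface, had log2 levels of -4.75, -3.85 and -3.11 in vehicle cells, -7.19, -7.09 and -5.75 at 1 nM and -7.57, -7.76 and -8.62 at 10 nM. Its probe was well above background on all vehicle arrays, on 1 array at 1 nM and on none at 10 nM, and its vehicle arrays themselves ranged from -4.75 to -3.11. The fall at 1 nM passed (adjusted p = 0.00843), but its measured size of 2.77 (SE 0.54) rests in part on 2 arrays on which the probe was not well above background. The fall at 10 nM was at least 7.26-fold (adjusted p = 9.24e-04), a bound that vehicle replicate 3, the highest of its group, raises. Without that array the measured Emilin1 change was -2.37 (adjusted p = 0.0188) at 1 nM and -3.68 (adjusted p = 0.00213) at 10 nM. Mfap4 changed by -1.68 (SE 0.49, adjusted p = 0.0452) at 1 nM and by -2.23 (SE 0.49, adjusted p = 0.0115) at 10 nM, but vehicle replicate 3 read -0.58 against -2.72 and -2.32 on the other vehicle arrays. Without that array the falls were 1.03 (adjusted p = 0.00394) and 1.58 (adjusted p = 3.89e-04). Without vehicle replicate 2 or any 1 of the 6 treated arrays, the Mfap4 fall at 1 nM did not pass, with adjusted p from 0.0549 to 0.127. Mfap5 fell by 0.86 (SE 0.10, adjusted p = 5.48e-04) at 1 nM and 1.07 (SE 0.10, adjusted p = 1.22e-04) at 10 nM.

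The core of the elastic fibre was not called. Elastin changed by -0.48 (SE 0.27, adjusted p = 0.258) at 1 nM and -0.48 (SE 0.27, adjusted p = 0.222) at 10 nM. The fibrillin genes Fbn1 and Fbn2 changed by 0.08 and -0.09 at 1 nM and by -0.10 and -0.43 at 10 nM, with adjusted p from 0.277 to 0.849. Mfap2, a small microfibril protein, changed by -0.53 (SE 0.20, adjusted p = 0.094) at 1 nM and -0.43 (SE 0.20, adjusted p = 0.142) at 10 nM. Its arrays did not overlap with vehicle at either dose, but the array of 1 nM replicate 1 lay at -2.32 against -1.60 and -1.55 on the others of its group.

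Of 6 basement membrane genes, 2 rose and 3 fell at 1 nM, and 1 rose and 3 fell at 10 nM. Laminin alpha 4, a chain found around vessels, nerves and developing muscle, fell most at 10 nM. Lama4 had log2 levels of -2.78 and -2.57 in vehicle cells, -3.99, -4.13 and -4.01 at 1 nM and -5.42, -5.94 and -5.71 at 10 nM, with the spot on vehicle replicate 3 left out as non-uniform, so vehicle has 2 values. It fell by 1.37 (SE 0.16, adjusted p = 0.00121) at 1 nM and 3.01 (SE 0.16, adjusted p = 1.98e-05) at 10 nM. Nidogen 1, which links laminin to collagen IV, had log2 levels of 3.78, 3.40 and 3.81 in vehicle cells, 2.00, 2.04 and 2.08 at 1 nM and 1.94, 1.87 and 1.83 at 10 nM. Its fall was 1.62 (SE 0.11, adjusted p = 4.25e-05) at 1 nM and 1.78 (SE 0.11, adjusted p = 1.68e-05) at 10 nM, and 2 other probes gave -1.86 and -1.49 at 1 nM and -1.94 and -1.67 at 10 nM. Nidogen 2, its relative, was slightly higher. Nid2 had log2 levels of 2.71, 2.93 and 2.80 in vehicle cells, 3.15, 3.16 and 3.24 at 1 nM and 3.12, 3.09 and 3.19 at 10 nM, a rise of 0.37 (SE 0.08, adjusted p = 0.01) at 1 nM and 0.32 (SE 0.08, adjusted p = 0.0147) at 10 nM. The Nid2 call at 10 nM was lost with slide as a block (adjusted p = 0.0686) and without 10 nM replicate 3 (adjusted p = 0.0578).

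Laminin alpha 2 is the main heavy chain of the adult muscle fibre's basement membrane. Lama2 had log2 levels of 1.21, 1.20 and 1.22 in vehicle cells, 1.40, 1.53 and 1.45 at 1 nM and 1.03, 1.13 and 1.04 at 10 nM. It rose by 0.25 (SE 0.06, adjusted p = 0.025) at 1 nM, and its 10 nM change was -0.14 (SE 0.06, adjusted p = 0.138). This rise no longer passed with slide as a block (adjusted p = 0.0537), without vehicle replicate 1 (adjusted p = 0.0647) and without 1 nM replicate 2 or 3 (adjusted p = 0.104 and 0.0782). A second probe of Lama2 gave 0.19 at 1 nM (adjusted p = 0.266) and -0.15 at 10 nM (adjusted p = 0.336). Between the doses that probe gave -0.34 (adjusted p = 0.213), so it passed in no comparison. The laminin gamma 1 chain, Lamc1, fell by 0.34 (SE 0.09, adjusted p = 0.0341) at 1 nM, a call lost without any 1 of the vehicle or 1 nM arrays, with adjusted p from 0.052 to 0.111. Lamc1 changed by -0.12 (SE 0.10, adjusted p = 0.389) at 10 nM, where replicate 3 has no value. Hspg2, which encodes perlecan, changed by -0.35 (SE 0.11, adjusted p = 0.0551) at 1 nM and fell by 0.37 (SE 0.11, adjusted p = 0.0339) at 10 nM. The 10 nM call was lost without vehicle replicate 2 or 3, without 1 nM replicate 3, and without 10 nM replicate 1 or 3, with adjusted p from 0.0538 to 0.102. A second probe of Hspg2 did not pass, with -0.16 at 1 nM (adjusted p = 0.4) and -0.21 at 10 nM (adjusted p = 0.253).

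Of the 3 crosslinking oxidases, 2 fell at each dose. Loxl1, which is needed for elastin renewal, had log2 levels of 3.75, 4.04 and 3.88 in vehicle cells, 3.02, 3.08 and 3.15 at 1 nM and 2.57, 2.57 and 2.52 at 10 nM. The groups did not overlap, and the fall was 0.81 (SE 0.09, adjusted p = 4.11e-04) at 1 nM and 1.34 (SE 0.09, adjusted p = 1.84e-05) at 10 nM. Lox, the founding lysyl oxidase, fell by 0.50 (SE 0.12, adjusted p = 0.0182) at 1 nM and 0.67 (SE 0.12, adjusted p = 0.00342) at 10 nM. Its 1 nM call was lost without vehicle replicate 1 (adjusted p = 0.0609), without 1 nM replicate 2 or 3 (adjusted p = 0.073 and 0.0585) and with slide as a block (adjusted p = 0.0501). Loxl2 changed by -0.40 (SE 0.23, adjusted p = 0.265) at 1 nM and -0.16 (SE 0.23, adjusted p = 0.617) at 10 nM by its brightest probe, which was not called. Another probe of Loxl2 passed with -0.71 at 1 nM (adjusted p = 8.65e-04) and -0.38 at 10 nM (adjusted p = 0.0135). Its remaining probe did not pass, with -0.54 (adjusted p = 0.0677) and -0.42 (adjusted p = 0.117).

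Of the other 6 genes, 5 fell and 1 rose at each dose. Cilp, a cartilage matrix protein that also occurs in heart and muscle, had log2 levels of 3.15, 3.77 and 2.89 in vehicle cells, -1.45, -1.51 and -1.45 at 1 nM and -3.38, -3.33 and -3.65 at 10 nM. Its log2 change was -4.74 (SE 0.21, adjusted p = 3.71e-06) at 1 nM and -6.72 (SE 0.21, adjusted p = 4.51e-07) at 10 nM, that is 26.8-fold and 106-fold lower. Within slide 1 the Cilp change was -4.91 at 1 nM and -6.84 at 10 nM, and within slide 2 it was -4.37 and -6.23. Lrrc17, a secreted leucine-rich repeat protein known to restrain osteoclast formation, had log2 levels of 2.73, 3.02 and 2.60 in vehicle cells, -0.72, -0.63 and -0.44 at 1 nM and -2.70, -2.40 and -2.81 at 10 nM. It fell 10.4-fold at 1 nM (adjusted p = 3.63e-06) and 42.8-fold at 10 nM (adjusted p = 2.36e-07). All 3 groups of both genes were apart from each other. Mgp, the matrix Gla protein that inhibits calcification, rose instead. Mgp had log2 levels of 4.40, 4.33 and 4.09 in vehicle cells, 5.80, 5.86 and 5.78 at 1 nM and 5.76, 5.66 and 5.70 at 10 nM, a rise of 1.54 (SE 0.09, adjusted p = 1.62e-05) at 1 nM and 1.44 (SE 0.09, adjusted p = 1.47e-05) at 10 nM.

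The large chondroitin sulphate proteoglycan versican fell. Vcan dropped by 0.69 (SE 0.13, adjusted p = 0.00603) at 1 nM and 1.15 (SE 0.13, adjusted p = 3.20e-04) at 10 nM by its brightest probe, and its other probes gave -0.76 and -0.50 at 1 nM and -1.28 and -0.81 at 10 nM. Ecm1, a secreted glycoprotein of skin and cartilage, fell by 0.91 (SE 0.09, adjusted p = 2.81e-04) at 1 nM and 1.17 (SE 0.09, adjusted p = 4.92e-05) at 10 nM. Matn2, which encodes the filament-forming matrilin 2, fell by 0.85 (SE 0.07, adjusted p = 7.14e-05) and 0.79 (SE 0.07, adjusted p = 6.99e-05). Every treated array of these 3 genes lay below every vehicle array.

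The next question is whether the higher dose differed from the lower. Of the 46 genes, 1 was higher and 10 were lower at 10 nM than at 1 nM, so 23.9% were called, against 3.81% of all genes tested (1.6% higher and 2.21% lower). The median difference was -0.18, beside -0.01 over all genes. These counts come from the fit without a block. Replicate numbers were also taken as pairs for this comparison, and with replicate number as a block 7 genes were lower and 0 higher. That fit placed the vehicle arrays in the same blocks, although their numbers were not taken as pairs. It is therefore not a pairing of the doses alone. Within slide 1, with 1 array of each dose, the median difference of the 46 genes was -0.09, beside 0.06 over all genes. Within slide 2, with 1 array at 10 nM, it was -0.15, beside 0.01. So few arrays cannot decide calls, so none are counted within a slide. With slide as a block 6 genes were lower and 0 higher. With each array's median as the scale, 3 were lower and 0 higher, and over all genes 18 were lower and 40 higher.

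Postn had the largest difference between the doses. Its 10 nM arrays, between -0.93 and -0.73, lay below its 1 nM arrays, between 1.66 and 1.80, a fall of 5.9-fold (log2 -2.56 (SE 0.14, adjusted p = 2.32e-04)). The Postn difference was -2.59 within slide 1 and -2.49 within slide 2. Lrrc17 was 4.12-fold lower at 10 nM than at 1 nM (log2 -2.04 (SE 0.15, adjusted p = 6.71e-04)), Cilp 3.95-fold (log2 -1.98 (SE 0.21, adjusted p = 0.0032)) and Lama4 3.12-fold (log2 -1.64 (SE 0.14, adjusted p = 0.00278)). No array of either dose overlapped with the other for these 4 genes. Within slide 1 the differences of Lrrc17, Cilp and Lama4 were -1.98, -1.92 and -1.43, and within slide 2 they were -1.87, -1.86 and -1.87.

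**Figure D4:**
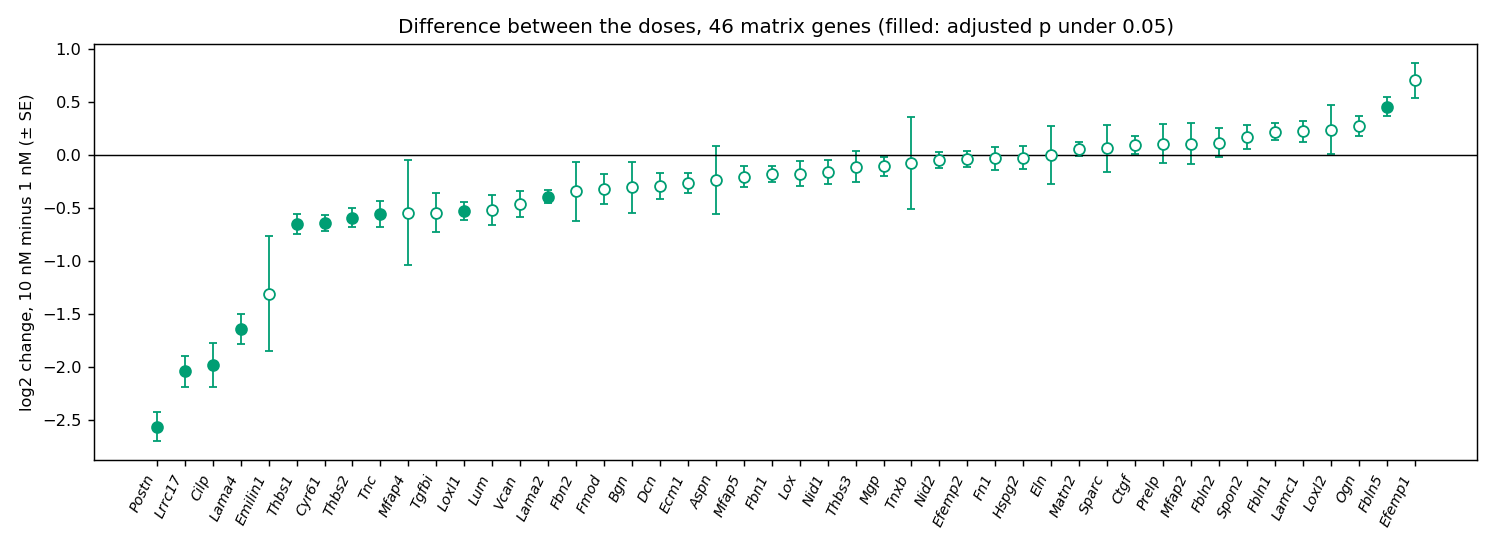
Log2 difference between the doses (y axis, 10 nM minus 1 nM, mean ± SE, 3 arrays per dose, 2 at 10 nM for Lamc1) of the 46 matrix genes in order of size (x axis); filled points passed the test. Postn, Lrrc17, Cilp and Lama4 lie at -1.64 or lower, Fbln5 is the only filled point above 0, and Efemp1, the highest, is open.

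Smaller falls between the doses were seen in adhesive genes and Loxl1. Thbs1 was lower by 0.65 (SE 0.09, adjusted p = 0.00916), Cyr61 by 0.64 (SE 0.08, adjusted p = 0.00547) and Thbs2 by 0.59 (SE 0.09, adjusted p = 0.0108). Tnc was lower by 0.56 (SE 0.12, adjusted p = 0.0494), Loxl1 by 0.53 (SE 0.09, adjusted p = 0.0167) and Lama2 by 0.39 (SE 0.06, adjusted p = 0.0158). With replicate number as a block, Tnc (adjusted p = 0.144), Loxl1 (adjusted p = 0.052) and Lama2 (adjusted p = 0.0507) did not pass. Tnc also lost its call without any 1 array other than vehicle replicate 3, with adjusted p up to 0.185. Loxl1 lost its call without any 1 array of either dose (adjusted p from 0.0532 to 0.0914), Lama2 without 1 nM replicate 2 or 3 or 10 nM replicate 1 or 3 (adjusted p from 0.0711 to 0.0827), Thbs1 without 1 nM replicate 2 (adjusted p = 0.0545), and Thbs2 without 1 nM replicate 1 or 3 (adjusted p = 0.0553 and 0.0616). With slide as a block Thbs1 also missed the threshold (adjusted p = 0.0632).

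Fbln5 was the only 1 of the 46 genes called higher at 10 nM than at 1 nM. Its 10 nM arrays, between 2.60 and 2.78, lay above its 1 nM arrays, between 2.16 and 2.30, a difference of 0.45 (SE 0.09, adjusted p = 0.0353). The second Fbln5 probe gave 0.91 (adjusted p = 0.0421). The call was lost with replicate number as a block (adjusted p = 0.111), with slide as a block (adjusted p = 0.121), and without vehicle replicate 1 or any 1 array of either dose (adjusted p from 0.0626 to 0.158). Efemp1 differed more, by 0.70 (SE 0.17, adjusted p = 0.0725), which did not pass, but it passed without vehicle replicate 3 (adjusted p = 0.0177).

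The pattern over doses sorted the 46 genes. Falls at both doses were called in 26 genes, of which 9 were lower again at 10 nM than at 1 nM: Cilp, Cyr61, Lama4, Loxl1, Lrrc17, Postn, Thbs1, Thbs2 and Tnc. The remaining 17, such as Fmod, Prelp, Nid1 and Ctgf, showed no called difference between the doses, and for Aspn and Emilin1 among them signals near background limit that comparison. With replicate number as a block, Loxl1 and Tnc would not count among the 9 genes. Rises at both doses were called in Dcn, Efemp1, Fbln1, Mgp and Nid2. The other 5 called genes had a pattern each: Lamc1 passed as a fall at 1 nM, Fbln5 fell at 1 nM and was higher at 10 nM than at 1 nM, Hspg2 passed as a fall at 10 nM, Lum as a rise at 1 nM, and Lama2 rose at 1 nM and was lower at 10 nM than at 1 nM. The differences of Fbln5 and Lama2 between the doses did not pass with the replicate block either. For Lamc1, Hspg2 and Lum the difference between the doses did not pass. Bgn, Eln, Fbln2, Fbn1, Fbn2, Fn1, Loxl2, Mfap2, Sparc and Tnxb passed in no comparison.

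The changes of dim genes differed in size between settings. With quantile normalization, the Aspn change was -5.33 at 1 nM and -5.22 at 10 nM from the scanner's processed signals, and -2.58 and -2.65 from signals corrected by normexp. The Emilin1 change was -1.86 and -3.34 from the processed signals and -0.87 and -1.12 with normexp. In the submitters' deposited table, whose values behave as log2 after another background correction, the Aspn change was -2.51 at 1 nM and -2.59 at 10 nM. There the change of Emilin1 was -0.85 and -1.10, that of Prelp -0.99 and -0.94, that of Fmod -2.62 and -2.82, that of Tnc -2.14 and -2.49, and that of Tgfbi -1.02 and -1.36. All 6 genes still passed in that table. Lama4 was at -2.35 there at 10 nM and its difference between the doses, -0.87, did not pass (adjusted p = 0.606), nor did those of Thbs2 (adjusted p = 0.147), Loxl1 (adjusted p = 0.0726), Lama2, Tnc and Fbln5.

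Genes around the 46 were counted by lists of the same families and of matrix biology. Over all genes tested, 11.8% rose and 11.8% fell at 1 nM, and 15.4% rose and 14.7% fell at 10 nM. Of 55 other matrix glycoprotein and proteoglycan genes measured, 8 rose and 24 fell at 1 nM, and 12 rose and 27 fell at 10 nM, with a median of -0.54 at 1 nM and -0.74 at 10 nM. Cthrc1, a secreted protein of injured tissue, fell by 3.29 (SE 0.31, adjusted p = 2.11e-04) at 1 nM and 5.26 (SE 0.31, adjusted p = 1.11e-05) at 10 nM, where its probe was well above background on 1 array. Smoc2, which encodes a Sparc relative, fell by 3.85 (SE 0.11, adjusted p = 3.95e-07) and 4.65 (SE 0.11, adjusted p = 1.04e-07). Dpt, which encodes dermatopontin and stands among the fibroblast markers too, fell at least 6.17-fold at 1 nM and at least 6-fold at 10 nM (adjusted p = 1.33e-05). Against these, the fibulin family gene Fbln7 rose by 4.62 (SE 0.08, adjusted p = 2.62e-07) at 1 nM and 5.39 (SE 0.08, adjusted p = 7.86e-08) at 10 nM. Vtn, which encodes vitronectin, and Fras1, a basement membrane gene, rose at 10 nM, by 3.59 (SE 0.85, adjusted p = 0.0154) and 2.13 (SE 0.17, adjusted p = 4.97e-05). The Vtn level was -6.71, -7.62 and -3.77 on the vehicle arrays, and its probe was well above background on 2 of them. The Vtn rise was 4.72 (adjusted p = 1.27e-05) without vehicle replicate 3 and 2.80 (adjusted p = 0.0338) without vehicle replicate 2, and it did not pass without vehicle replicate 1 (adjusted p = 0.0542).

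Crosslinking and collagen-modifying enzymes outside the 46 fell in like numbers. Of 19 measured, 14 fell and 2 rose at each dose. The share called was 84.2% at each dose, against 23.6% of all genes at 1 nM and 30.1% at 10 nM. Rises were no more frequent than over all genes. Both remaining lysyl oxidase genes fell: Loxl4 had log2 changes of -2.22 (SE 0.10, adjusted p = 4.57e-06) at 1 nM and -2.36 (SE 0.10, adjusted p = 2.16e-06) at 10 nM, and Loxl3 of -1.46 (SE 0.10, adjusted p = 3.55e-05) and -2.05 (SE 0.10, adjusted p = 3.85e-06). P4ha2, which encodes a collagen prolyl hydroxylase subunit, fell by 1.34 and 1.52. Tgm2, which encodes the crosslinking transglutaminase 2, rose by 0.86 (SE 0.09, adjusted p = 3.15e-04) at 1 nM and 2.65 (SE 0.09, adjusted p = 5.70e-07) at 10 nM, and Sulf2, a heparan sulphate sulphatase gene, rose by 2.62 and 2.91.

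Of 30 matrix receptor genes, 6 rose and 9 fell at 1 nM, and 4 rose and 12 fell at 10 nM. The share called was 50% at 1 nM and 53.3% at 10 nM, against 23.6% and 30.1% of all genes. Rises at 10 nM were no more frequent than over all genes, of which 15.4% rose. The integrin subunit Itgb3, part of a receptor for vitronectin and periostin, fell at both doses, with log2 changes of -3.27 (SE 0.13, adjusted p = 2.45e-06) at 1 nM and -4.64 (SE 0.13, adjusted p = 2.98e-07) at 10 nM. Itga4 and Itga11 fell by 2.42 and 1.87 at 10 nM. The laminin receptor subunit Itga6 rose by 1.84 (SE 0.09, adjusted p = 6.33e-06) at 1 nM and 2.16 (SE 0.09, adjusted p = 1.75e-06) at 10 nM, and Itgb5 and the syndecan gene Sdc4 rose by 0.77 and 0.73 at 10 nM.

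Of 37 genes of glycosaminoglycan synthesis, which build the sugar chains of proteoglycans and hyaluronan, 3 rose and 15 fell at 1 nM, and 3 rose and 17 fell at 10 nM. The share called was 48.6% at 1 nM and 54.1% at 10 nM, against 23.6% and 30.1% of all genes. Rises were rarer than over all genes, of which 11.8% rose at 1 nM and 15.4% at 10 nM. Has2, a hyaluronan synthase gene, fell by 0.97 (SE 0.10, adjusted p = 3.84e-04) at 1 nM and 2.40 (SE 0.10, adjusted p = 2.07e-06) at 10 nM. The sulphotransferase genes Chst3 and Chst1 fell by 2.49 and 2.37 at 10 nM. Extl1, Chst11 and Ndst2 rose by 1.17, 0.63 and 0.25 at 10 nM. The Ndst2 call was lost without any 1 array other than vehicle replicate 2, with adjusted p from 0.0575 to 0.103.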

How the data were processed

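Total RNA of 9 C2C12 samples was hybridised to 1-colour arrays. The deposited scanner files hold intensity values: processed, mean and background signals per spot, written by the scanner software, Agilent Feature Extraction. Its version was 11.5.1.1, per the submitters' processing notes. A further deposited table gives log2 values for 30094 probes, which correlated at 0.9999 with normexp-corrected, quantile-normalized signals computed here. It was used as an alternative. The header of the 10 nM replicate 3 file names no genome build.

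Here log2 processed signals minus each array's 75th percentile were used. Control and non-uniform spots were left out, spots of a probe averaged, and probes kept if well above background on all 3 arrays of a group (28342 of 39429). The brightest kept probe stood for a gene. Adjusted p values of further probes came from a separate fit over all kept probes, corrected over those probes. All 46 genes had a kept probe, 31 of them only 1 on the array. Other genes were named through RefSeq (GRCm38.p6) (21036 kept probes matched on accession, 2168 on symbol, and 5138 kept the file's name). All groups entered 1 limma 3.58.1 fit in R 4.3.3 (lmFit, eBayes, no block), with Benjamini-Hochberg adjustment over 21995 genes at 0.05. The procedure was also run on simulated data with independent normal noise. These held no slide effect, deviant array, missing spot or signal floor, so they do not bear on those limits.

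The 46 genes, the role lists and the lists of related genes were chosen with earlier results of these data known. Arrays are printed for the 10 genes that rose most and the 10 that fell most at each dose, for the 5 of each direction between doses, and for 1 gene per role. From related lists, up to 3 genes per direction are named. Whether replicate numbers pair the arrays was checked by correlating deviations from group means across genes. Same-numbered 1 nM and 10 nM arrays correlated at 0.489, 0.333 and 0.136, so they were taken as pairs, from the data and not the labels. Vehicle numbers were not (correlations from -0.42 to 0.0707). Both treated arrays of replicate 1 lay on slide 1 and both of replicate 2 on slide 2, while those of replicate 3 lay on slides 2 and 3. The correlations thus cannot tell a shared slide from a shared culture. The number of arrays limits the precision. Alternatives covered background correction, scaling, probe choice and filter, spread model, array weights, blocks and arrays left out.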

Additional observations from a re-analysis of the deposited data

How the results depend on the processing

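Leaving out the fits within single slides, 17 of 35 calls among the 46 genes at 1 nM and 18 of 32 at 10 nM passed under every alternative. Between the doses 2 of 11 did. With each array's median as the scale, 14 genes fell at 1 nM and 14 at 10 nM, and 3 were lower at 10 nM than at 1 nM. Over all genes the lower calls numbered 573, 833 and 18 in the same order. That scale also turned Lamc1 at 1 nM to 0.15, Hspg2 at 10 nM to 0.15 and Spon2 at 10 nM to 0.072, none of them called; the cause was not tested. A 2-fold minimum left 16 falls and 4 rises at 1 nM. Between the doses, the 10 lower genes became 6 with normexp, with slide as a block and at an adjusted p of 0.01. They became 5 in the submitters' table and with median scaling without vehicle replicate 3, and 4 with a 2-fold minimum. The 1 higher gene became 2 with array weights, with trend and robust, and with only both groups fitted. It became 0 with normexp, quantile or median scaling, median scaling without vehicle replicate 3, the submitters' table, no probe filter and mean probes. It also became 0 with the replicate block, slide as a block and both stricter thresholds. Leaving out 1 array in turn gave 25 to 27 falls and 6 to 7 rises at 1 nM, 25 to 28 falls and 4 to 6 rises at 10 nM, and 6 to 11 lower and 0 to 2 higher genes between the doses. The replicate block against vehicle gave 27 falls and 7 rises at 1 nM and 27 falls and 5 rises at 10 nM. Beside the calls lost between the doses named above, it ended the calls of Lamc1 (adjusted p = 0.0557) and Mfap4 (adjusted p = 0.0775) at 1 nM and made one of Hspg2 (adjusted p = 0.0344). Signal near background limits Aspn and Emilin1, whose treated levels are floors on most arrays.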
